A study of Mus musculus with 2 samples.

Results

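*Smpd3* was followed with 6 other enzymes that make or break down sphingomyelin and ceramide (*Smpd1*, *Smpd2*, *Sgms1*, *Sgms2*, *Asah1* and *Cers2*). They were read across the cell types found after intact and fractured mouse femora were sorted for *Clec3b*-lineage cells. These 7 of the 32285 genes counted were chosen by symbol, with the UMI (unique molecular identifier) counts of both libraries already known. The choice of *Smpd3* thus rests on the levels described here, which are a description, and no threshold entered the choice.

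Both libraries came from Clec3b.creERT2; Ai14.R26.tdTomato mice, in which CreERT2 is made from the *Clec3b* locus and tamoxifen permanently switches on tdTomato in cells that use the locus and in their descendants. All mice received tamoxifen 2 weeks before surgery at 6 weeks of age, in which the shaft of the right femur was cut and held with a pin. Calluses formed the fracture group, and intact diaphyses with their surrounding muscle the other. After 3 weeks, tissue of 3 littermates was pooled per group, digested with collagenase, sorted for tdTomato+ cells and sequenced with the 10× 3′ kit, which gave 1 library per condition. No difference between conditions therefore has a replicate check, and no test was made.

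Sphingomyelin is a lipid of the outer plasma membrane. Sphingomyelinases cut it into ceramide and phosphocholine, and sphingomyelin synthases make it from ceramide. Ceramidases break ceramide down to sphingosine, and ceramide synthases build ceramide with acyl chains of set lengths. *Smpd3* encodes neutral sphingomyelinase 2, whose loss in mice leaves skeletal matrix poorly mineralized, and variants of *SGMS2* cause a form of osteoporosis in people.

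The intact library held 1872 barcodes and 12112002 UMIs and the callus library 3987 barcodes and 36714322 UMIs. After removal of barcodes under 500 genes or over 10% mitochondrial UMIs, 1207 and 3295 cells remained at median depths of 4939 and 6843 UMIs, with 1 barcode shared between the libraries. Each cell was assigned to a type by marker genes, none of them among the 7 enzymes, which gave 288 intact and 215 callus fibroblasts. The limits of that assignment were set after levels had been seen. Blood types made up 62.8% of intact and 77.2% of callus cells despite the sort. The paper found no meaningful tdTomato expression in its hematopoietic and endothelial populations and left them out as flow cytometry artifacts. On that reading, the blood and endothelial-like values below are not values of the *Clec3b* lineage. The mice are labelled male, but among fibroblasts of 5000 UMIs or more *Xist* was present in 97.5% (of 199, intact) and 98.1% (of 162, callus), and the 8 Y-linked genes examined held 1 and 0 UMIs. Scrublet called 7 of 4502 cells doublets, so doublets cannot be taken as removed. Levels are UMIs summed over the cells of a type and scaled to a total of 1000000 (CPM), and brackets give exact 95% Poisson intervals. Shares of cells have Clopper-Pearson intervals, and both cover counting error only.

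*Smpd3* was highest in *Pi16*-type fibroblasts, the cells marked by *Pi16* and *Dpp4*, and in osteoblast-like cells of the callus. The gene lies on chromosome 8 (GRCm38, 106252548 to 106337988, minus strand), where it overlaps *Gm26786* on its own strand and *Prmt7* and *Gm10629* on the other. The 219 intact *Pi16*-type cells had 1546 CPM (1485 to 1609) from 2403 UMIs. The 40 callus osteoblast-like cells, marked by *Bglap*, *Ibsp* and *Ifitm5*, had 1043 CPM (972 to 1118). The 143 callus *Pi16*-type cells had 399 CPM (363 to 436). These 3 groups held the top of the order over 28 groups of at least 20 cells, and their intervals did not overlap.

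**Figure D1:**
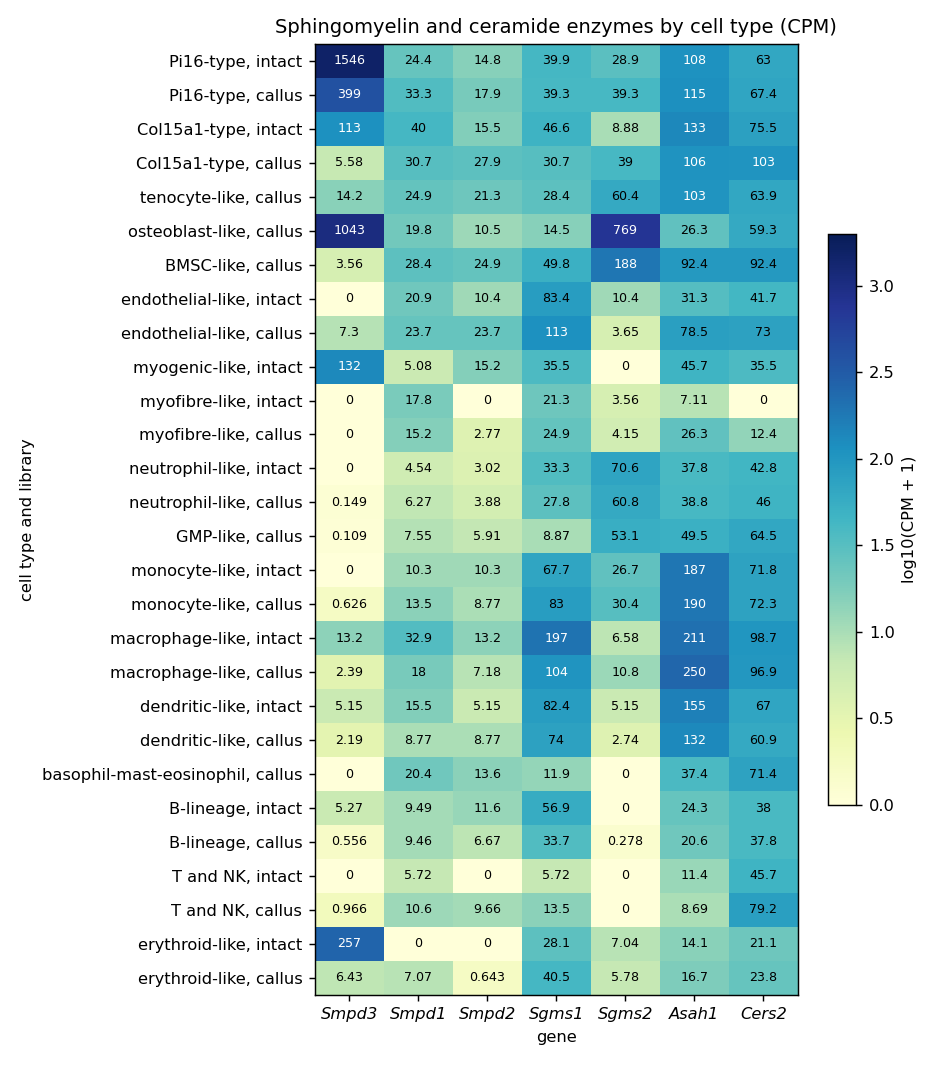
Level of each enzyme (columns) in every group of at least 20 cells (rows), printed in CPM and coloured by log10(CPM + 1). *Smpd3* stands at 1546 and 399 in *Pi16*-type fibroblasts and 1043 in osteoblast-like cells, *Sgms2* at 769 in osteoblast-like cells, and *Asah1* peaks at 250 in callus macrophage-like cells.

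Other mesenchymal cells carried far less *Smpd3*. *Col15a1*-type fibroblasts, which express *Col15a1* and *Smoc2*, had 113 CPM (84.3 to 149) across 65 intact cells. Their 44 callus cells had 5.58 CPM (0.675 to 20.1). Tenocyte-like cells of the callus had 14.2 CPM from 4 UMIs. The 42 callus BMSC-like cells (bone marrow stromal cells, marked by *Lepr*, *Cxcl12* and *Adipoq*) had 3.56 CPM from 1 UMI. Callus *Col15a1*-type, tenocyte-like and BMSC-like cells could not be ranked, since their intervals overlapped.

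Blood cells were nearly empty of *Smpd3*. The 302 intact neutrophil-like cells held 0 *Smpd3* UMIs, with an interval of 0 to 1.86 CPM, and the 674 callus ones held 1. Monocyte-like cells held 0 in the intact and 2 in the callus library, and B-lineage cells 5 and 2. Intact erythroid-like cells (257 CPM) and myogenic-like cells (132 CPM) came next to *Pi16*-type cells in the order, but 2 cells and 1 cell held all of their *Smpd3* UMIs. Outside the fibroblast, osteoblast-like and BMSC-like groups, 99 of the 107 intact *Smpd3* UMIs lay in 3 cells, and those cells carried 221 to 270 UMIs of the general fibroblast markers, where the median cell carried 1. In the callus the 32 such *Smpd3* UMIs were spread over 20 cells. There, 15 of them lay in 4 cells, which carried 3 to 421 fibroblast marker UMIs. Fibroblasts held 94.5% of the *Smpd3* UMIs of the intact library with 23.9% of its cells and 27.0% of all its UMIs. In the callus, fibroblasts held 36.4% with 6.53% of the cells and 5.29% of all UMIs. Osteoblast-like cells held 61.0% with 1.21% of the cells and 2.21% of all UMIs.

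Within a type, *Smpd3* varied widely between cells. In intact *Pi16*-type cells the counts ran from 0 to 124 UMIs with a median of 5, and 79.5% of cells (73.5 to 84.6) carried at least 1. In callus *Pi16*-type cells they ran from 0 to 43 with a median of 1, and 66.4% (58.1 to 74.1) carried at least 1. In B-lineage cells, taken as the background of free RNA, 1.12% of intact and 0.345% of callus cells did, at median depths of 2864.5 and 3232.5 UMIs against 7196 and 7633 in *Pi16*-type cells. With every cell thinned to 2000 UMIs, which left out 22 intact and 12 callus *Pi16*-type cells, the shares were 69.0% (62.1 to 75.4) and 51.1% (42.3 to 60.0). The B-lineage shares were then 0.810% and 0.366%. Among carriers at that depth, intact *Pi16*-type cells averaged 4.68 and callus cells 2.39 *Smpd3* UMIs, so the callus cells were lower both in the share of carriers and in the level per carrier. At least 10 UMIs were found in 17 intact and 1 callus cell.

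**Figure D2:**
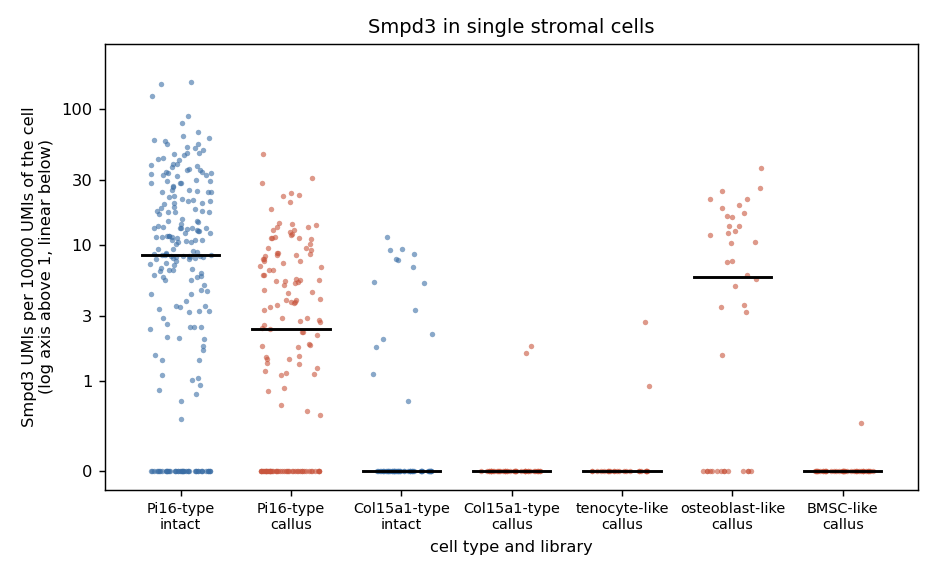
*Smpd3* UMIs per 10000 UMIs in each stromal cell (points, intact in blue and callus in red), with the median of each group as a black bar. The axis is logarithmic above 1 and linear below, and the medians are 8.45 and 2.41 in intact and callus *Pi16*-type cells, 5.80 in osteoblast-like cells and 0 in the other groups.

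The first comparison asked how the enzymes differed between callus and intact cells of the same fibroblast type. The libraries come from different tissue, callus against intact bone with muscle, so fracture and tissue of origin cannot be told apart. In callus *Pi16*-type cells *Smpd3* was lower than in intact ones by 1.96 on the log2 scale (interval -2.10 to -1.81), or 3.88-fold. *Pi16* itself was 1.66-fold lower there (2107 against 3487 CPM), while *Clec3b*, the gene that drives the Cre, was at 1558 and 1615 CPM. The other 6 enzymes stayed within 1.36-fold, and each of their intervals included no difference. *Smpd3* was therefore the 1 enzyme of 7 at least 2-fold apart, where 7.31% of the 9175 genes counted were. In *Col15a1*-type cells *Smpd3* was again lower in the callus (log2 ratio -4.34, interval -7.43 to -2.42), from 2 callus UMIs against 51. With types from Leiden clusters, which put 103 callus cells in this type in place of 44, the ratio was -2.98 (-3.90 to -2.16), and without the top cell of each group -5.13. That was 1 of the 5 enzymes with enough UMIs, against 11.7% of all genes counted.

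Some *Pi16*-type cells carried markers of neutrophils, and their summed level was higher in the callus. The 9 neutrophil markers summed to 3600 CPM in intact *Pi16*-type cells, with all 9 detected, and to 12785 CPM in callus cells, with *Mmp8* at 0. Of those UMIs, 5320 of 5596 intact and 14622 of 14979 callus UMIs lay in 2 cells of each library, and the median cell held 1 and 2. Without cells of at least 50 such UMIs the *Smpd3* log2 ratio was -1.91. Erythroid markers ran the other way, with 1038 CPM in intact and 182 CPM in callus *Pi16*-type cells and the same number of markers detected (6 of 7). Myofibre markers were at 149 CPM in intact and 714 CPM in callus *Pi16*-type cells, with all 7 detected in both. Tenocyte markers were at 9.65 CPM (4 of 8 detected) and 130 CPM (3 of 8), with *Scx* and *Kera* at 0 in both. Osteoblast markers were at 3435 and 5688 CPM (4 of 9 each), with *Ibsp* and *Sp7* at 0 in both. That list includes the collagen gene *Col1a1*, while *Bglap* was at 0.643 and 2.56 CPM and *Ifitm5* at 0.643 and 0. In callus *Col15a1*-type cells *Col1a1* was the only marker of the list detected, at 4865 CPM. The part of these other markers in the result was not tested.

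The same markers moved in *Col15a1*-type cells. The neutrophil list was at 180 CPM (7 of 9 detected) in intact and 10647 CPM (9 of 9) in callus cells, of which 1 callus cell held 3689 of 3819 UMIs. Without cells of at least 50 such UMIs the *Smpd3* log2 ratio was -4.29. Tenocyte markers were at 138 CPM (3 of 8) and 1037 CPM (2 of 8), with *Scx* and *Kera* at 0 in both. BMSC markers were at 286 CPM (6 of 8) and 602 CPM (7 of 8), with *Adipoq* at 0 in both, and erythroid markers at 1085 and 187 CPM (4 of 7 each). The part of these 3 lists in the result was not tested.

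Since *Pi16* was also lower, *Smpd3* was read within bands of *Pi16* level over all fibroblasts. *Smpd3* climbed with *Pi16* in both libraries. In intact fibroblasts it went from 81.0 CPM (53.8 to 117) in 49 cells without *Pi16* to 2222 CPM (2105 to 2345) in 92 cells with over 40 *Pi16* UMIs per 10000. In callus fibroblasts it went from 15.6 CPM (6.29 to 32.2) in 48 cells to 764 CPM (639 to 908) in 28 cells. At each of the 6 *Pi16* levels the callus value lay below the intact one and the intervals did not overlap. The log2 ratio was -2.37 without *Pi16*, -3.47 and -2.65 up to 5 and from 5 to 10, and then -1.36, -1.30 and -1.54 in the 3 highest levels. In fold terms the callus was 2.46- to 11.1-fold lower. The 11.1-fold value, in the band up to 5, rests on 7 callus *Smpd3* UMIs (log2 interval -4.86 to -2.32). The band without *Pi16* also held 7 callus UMIs (interval -3.81 to -1.14). In the 3 highest levels the callus was 2.46- to 2.91-fold lower. The highest band has no upper limit, and the bands pool the fibroblast types, whose mix differed between libraries. Tenocyte-like cells numbered 4 of 288 intact and 26 of 215 callus fibroblasts. The part of this mix in the ratios was not tested.

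**Figure D3:**
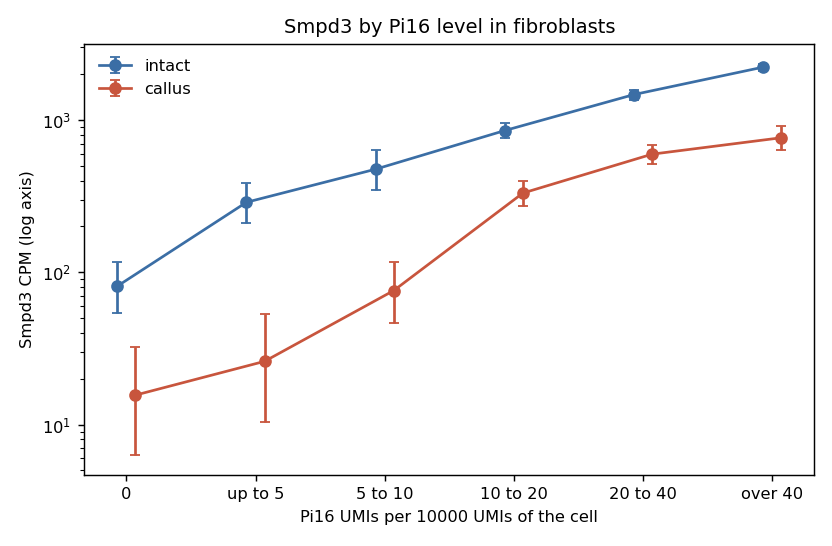
*Smpd3* CPM (log axis) of fibroblasts grouped by their *Pi16* UMIs per 10000 UMIs, for the intact (blue) and callus (red) library, with 95% Poisson intervals as bars. Both lines climb with *Pi16*, from 81.0 to 2222 in intact and from 15.6 to 764 in callus cells, and the callus line lies lower throughout.

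*Pi16*-type cells with at least 3 UMIs of *Ptx3* and *Has1*, genes of an inflammatory state, were set beside the rest. *Smpd3* was 1435 CPM (1360 to 1513) in 110 such intact cells and 1725 CPM (1621 to 1834) in the other 109. In the callus the values were 391 CPM (345 to 441) and 409 CPM (355 to 468). The callus cells were thus lower on both sides of this cut. The cut is in raw UMIs, and cells above it were deeper. Their median depths were 9024.5 against 5064 UMIs in intact and 9133 against 6439 UMIs in callus cells.

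The second comparison set the fibroblast types against each other within a library. *Smpd3* was 13.7-fold lower in intact *Col15a1*-type than in intact *Pi16*-type cells (log2 ratio -3.77, interval -4.20 to -3.37). In the callus the ratio was -6.16 (-9.21 to -4.30), resting on 2 UMIs in *Col15a1*-type cells. It was -5.09 with types from Leiden clusters and -7.01 without the top cell of each group. *Sgms2*, the plasma membrane sphingomyelin synthase, was also lower in intact *Col15a1*-type cells, with 4 UMIs (8.88 CPM) against 45 (28.9 CPM), a log2 ratio of -1.70 (-3.64 to -0.25). In the callus it was at 39.0 and 39.3 CPM (log2 ratio -0.01, interval -0.99 to 0.88, and 0.70 with types from Leiden clusters). The enzymes at least 2-fold apart were thus 2 of 7 in intact cells, where 17.7% of all genes counted were, and 1 of 7 in callus cells, where 15.4% were. *Pi16* defines 1 of the types, so these values describe how *Smpd3* followed that division.

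**Figure D4:**
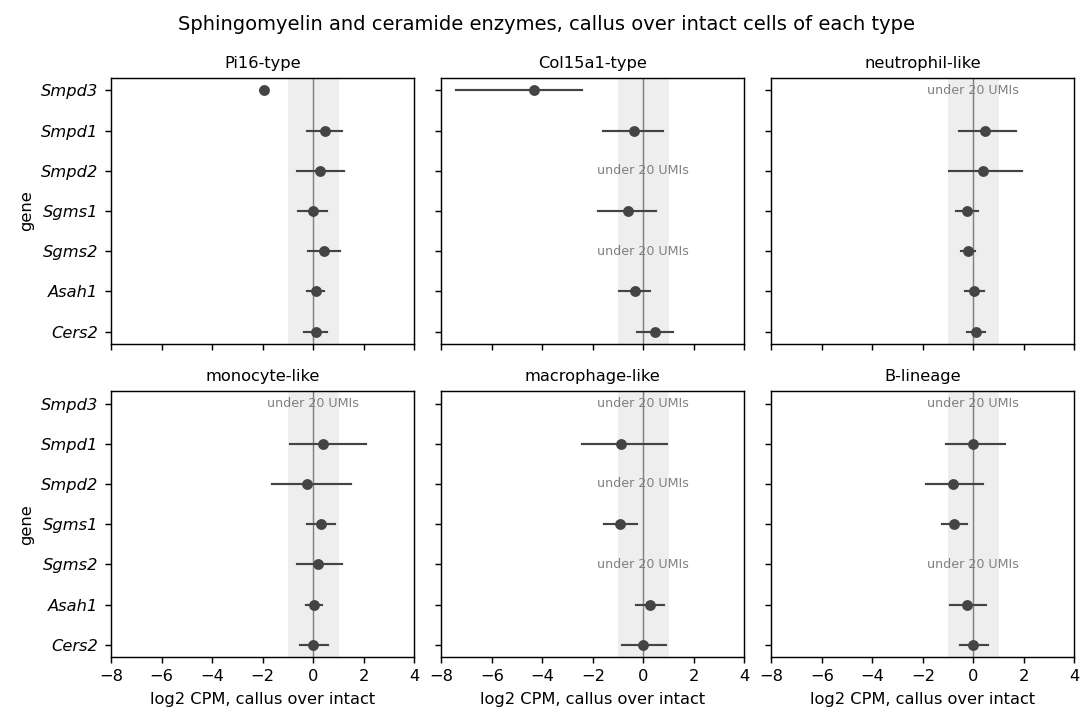
Log2 ratio of CPM in callus over intact cells for each enzyme in 6 cell types, with exact 95% counting intervals as lines (the *Smpd3* interval in *Pi16*-type cells is narrower than its point) and the range within 2-fold in grey. Only the *Smpd3* points of *Pi16*-type (-1.96) and *Col15a1*-type (-4.34) cells lie outside the grey range, and enzymes with under 20 UMIs have no point.

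The third comparison asked how osteoblast-like cells of the callus differed from callus fibroblasts. *Smpd3* was higher in osteoblast-like cells (1043 against 261 CPM, log2 ratio 2.00, interval 1.83 to 2.17). With every cell given the same weight the log2 ratio was 1.37. It was 2.00 again without stromal cells of at least 50 neutrophil marker UMIs, of which 3 were osteoblast-like. *Sgms2* was 18.1-fold higher (769 CPM, 708 to 834, against 42.4 CPM, log2 ratio 4.18, interval 3.83 to 4.54), and its interval lay above that of every other group. *Asah1*, the acid ceramidase of lysosomes, was 4.23-fold lower (26.3 against 111 CPM). *Sgms1*, the Golgi sphingomyelin synthase, was 2.47-fold lower (14.5 against 35.8 CPM), a direction that turned to a log2 ratio of 0.29 with every cell weighing the same. Of its 11 UMIs in osteoblast-like cells, 2 lay in 1 shallow cell of 1258 UMIs. *Cers2* and *Smpd1* stayed within 2-fold. *Smpd2* was 1.94-fold lower from 8 UMIs (log2 ratio -0.95, interval -2.27 to 0.17), and passed 2-fold with every cell weighing the same (-1.80) and without the top cell of each group (-1.49). The 4 of 7 enzymes past 2-fold compare with 44.2% of all genes counted, and the median of all genes was -0.69 in this comparison.

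The 40 osteoblast-like cells were not alike. *Ifitm5*, a gene of mineralizing osteoblasts, was detected in 25 of them. Those 25 cells had a median depth of 26090 UMIs, and *Smpd3* counts ran from 0 to 82 with a median of 24 and 23 cells positive. *Sgms2* was found in all 25, with counts from 1 to 74 and a median of 19. Their CPM values were 1174 (1093 to 1259) for *Smpd3* and 847 (779 to 920) for *Sgms2*. The 15 cells without *Ifitm5* had a median depth of 2642 UMIs, *Smpd3* in 3 cells (97.2 CPM, 44.5 to 185) and *Sgms2* in 7 (205 CPM, 124 to 321). They carried *Ibsp* (14079 against 3464 CPM) but less *Bglap* (3306 against 51494 CPM) and less *Col1a1* (15170 against 129266 CPM). Of these *Ibsp* UMIs, 1006 of 1303 lay in 1 cell that had no *Smpd3* and 1 *Sgms2* UMI. Among the 15 cells, *Bglap* was detected in 11 and *Ibsp* in 12. In 1 of them *Bglap*, *Ibsp*, *Ifitm5* and *Col1a1* were all at 0, with 29 UMIs of the osteoblast marker *Dmp1*, so the type of some of these cells is uncertain. Both enzymes were detected together in 24 of the 40 cells, *Smpd3* alone in 2, *Sgms2* alone in 8 and neither in 6. Over the 25 *Ifitm5* cells the 2 genes correlated at Pearson 0.59 per 10000 UMIs, across cells of 1 library that share depth and preparation.

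**Figure D5:**
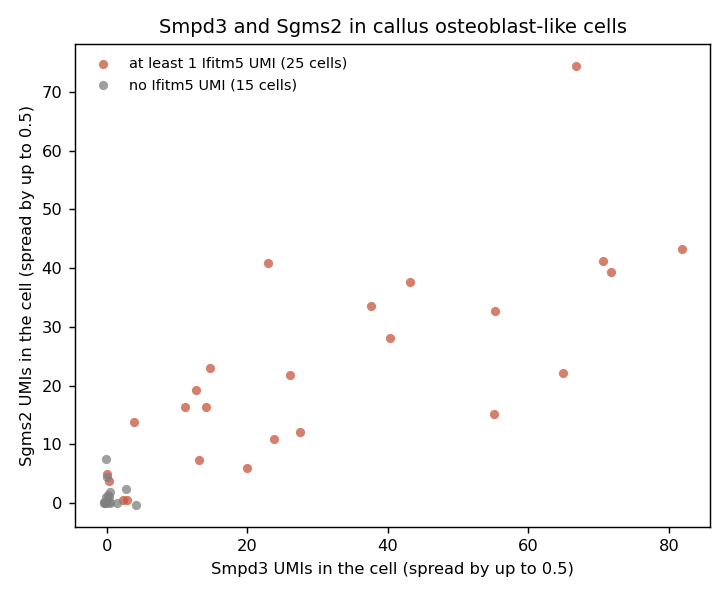
*Smpd3* (horizontal) and *Sgms2* (vertical) UMIs in each of the 40 callus osteoblast-like cells, points spread by up to 0.5 and coloured by whether the cell holds an *Ifitm5* UMI (red) or not (grey). The cells with the most of either enzyme, up to 82 *Smpd3* and 74 *Sgms2* UMIs, all carry *Ifitm5*, and cells without it lie at 0 to 4 and 0 to 8.

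Joint detection was less frequent in *Pi16*-type cells, whose median depth was also lower (7196 and 7633 UMIs against 20004.5). In intact *Pi16*-type cells 33 of 219 held both and 141 *Smpd3* alone, and in callus *Pi16*-type cells 17 of 143 held both and 78 *Smpd3* alone. BMSC-like cells had the reverse, with *Sgms2* alone in 20 of 42 and both in 1. *Sgms2* (chromosome 3, 131318985 to 131491411, minus strand) was 188 CPM (141 to 247) in BMSC-like cells, next in the order after osteoblast-like cells. That was 4.44-fold above callus fibroblasts, while *Smpd3* was lower (log2 ratio -6.20, interval -11.50 to -3.71), so 2 of 7 enzymes were past 2-fold where 29.9% of all genes counted were. *Clec3b* was at 1.32 CPM in osteoblast-like and 10.7 CPM in BMSC-like cells against 1268 CPM in callus fibroblasts.

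*Sgms2* had a further site in the granulocyte line. Intact neutrophil-like cells (302) had 70.6 CPM, 59.4 to 83.3, and the 674 of the callus 60.8, 55.0 to 67.0. GMP-like cells (granulocyte-monocyte progenitors) had 53.1 CPM (48.5 to 58.0) in the callus. These values overlapped those of tenocyte-like cells (60.4 CPM) and callus *Col15a1*-type cells (39.0 CPM, 21.3 to 65.5). The GMP-like interval also overlapped that of callus *Pi16*-type cells (39.3 CPM, 28.7 to 52.4). *Sgms2* was detected in 33.8% of intact and 37.5% of callus neutrophil-like cells, or 13.3% and 10.9% after thinning, against 0 of 268 and 1 of 580 B-lineage cells. Lymphocytes lacked it, with 0 UMIs in 174 callus T and NK cells. Monocyte-like cells lay at 26.7 and 30.4 CPM, and macrophage-like cells at 6.58 and 10.8.

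*Sgms1* (chromosome 19, 32122727 to 32389714, minus strand) followed another order. Its highest values were in macrophage-like cells (197 CPM intact, 133 to 282, and 104 CPM callus, 83.4 to 128) and in endothelial-like cells of the callus (113 CPM, 86.8 to 145). Of the 30 intact macrophage UMIs, 13 lay in 1 cell. Monocyte- and dendritic-like cells followed at 67.7 to 83.0 CPM, the fibroblast types stood at 28.4 to 46.6, and BMSC-like cells at 49.8. GMP-like cells (8.87 CPM, 7.04 to 11.0), osteoblast-like cells (14.5 CPM) and T and NK cells (5.72 and 13.5 CPM) were at the low end. The intervals of osteoblast-like (7.23 to 25.9) and BMSC-like cells (27.2 to 83.5) did not overlap.

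*Asah1* (chromosome 8, 41340197 to 41374773, minus strand) had its highest values in macrophage- and monocyte-like cells, but was not confined to them. In the intact library fibroblasts held 42.9% of its UMIs with 27.0% of all UMIs, and blood types 53.0% with 62.6%. In the callus fibroblasts held 8.73% with 5.29%, and blood types 84.8% with 84.3%. Macrophage-like cells had 250 CPM (217 to 286) in the callus and 211 CPM (144 to 297) in intact tissue, and monocyte-like cells 190 (175 to 206) and 187 CPM (150 to 229). Dendritic-like cells had 155 CPM in intact tissue and 132 in the callus. Fibroblasts of all types were close together at 103 to 133 CPM, and BMSC-like cells had 92.4. It was low in osteoblast-like cells (26.3 CPM, 16.1 to 40.7) and lowest in lymphocytes and erythroid-like cells, at 8.69 to 24.3 CPM, and in intact myofibre-like cells, at 7.11. After thinning, 57.7% of intact and 41.7% of callus macrophage-like cells carried it, against 6.07% and 5.12% of B-lineage cells.

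*Cers2*, which makes ceramides with very long acyl chains and lies on chromosome 3 (95314791 to 95323599, plus strand), was broad. Its 28 values ran from 0 in intact myofibre-like cells to 103 CPM in callus *Col15a1*-type cells. Each interval in that order overlapped the next. In the fibroblast types it was 63.0 to 103 CPM, in osteoblast-like cells 59.3 and in BMSC-like cells 92.4. Myofibre-like cells (0 and 12.4 CPM) and erythroid-like cells (21.1 and 23.8 CPM) were lowest.

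The remaining sphingomyelinases were scarce. *Smpd1*, the acid sphingomyelinase of lysosomes (chromosome 7, 105554360 to 105558389, plus strand), had 105 intact and 390 callus UMIs in all. The fibroblast types held the upper part of its order with at least 24.4 CPM each, alongside intact macrophage-like (32.9) and BMSC-like cells (28.4). Neutrophil-like cells had 4.54 and 6.27 CPM. *Smpd2*, neutral sphingomyelinase 1 (chromosome 10, 41485642 to 41490369, minus strand), had 64 and 249 UMIs in all and ran from 0 to 27.9 CPM. The fibroblast types again lay high, at 14.8 to 27.9, with BMSC-like (24.9) and callus endothelial-like cells (23.7) among them. For neither enzyme did any pair of neighbours in the order have separate intervals, and the high *Smpd3* of *Pi16*-type and osteoblast-like cells had no counterpart in them.

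Blood cells allowed the same contrast of callus and intact tissue for enzymes other than *Smpd3*. No counted enzyme was 2-fold apart. This was 0 of 6 in neutrophil-like cells, where 27.8% of all genes counted were and the median of all genes was 0.41. It was 0 of 6 in monocyte-like cells against 12.2%, 0 of 4 in macrophage-like cells against 19.1% and 0 of 5 in B-lineage cells against 16.0%. The differences with intervals clear of 0 were those of *Sgms1*, lower in callus macrophage-like cells (log2 ratio -0.92, interval -1.54 to -0.27) and callus B-lineage cells (-0.76, interval -1.23 to -0.27). Without the top cell of each group the macrophage ratio was -0.28 (-1.05 to 0.57), since 1 intact cell held 13 of 30 UMIs. The B-lineage ratio was then -0.72 (-1.20 to -0.21). In neutrophil-like cells *Sgms2* was at a log2 ratio of -0.22 (-0.50 to 0.07).

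The wider pathway was read from 66 genes in 8 lists. In *Pi16*-type cells, where *Smpd3* differed 3.88-fold, none of the 40 counted pathway genes was 2-fold apart between callus and intact, where 7.31% of all genes counted were, and their median log2 ratio was 0.22 against 0.03 over all genes. In *Col15a1*-type cells 1 of 28 was, against 11.7% of all genes counted. It was *Chka*, a choline kinase, at 47.4 against 11.1 CPM. Both values rest on few UMIs, so the size of the *Chka* difference is loosely fixed. Between the fibroblast types, *Enpp1* and *Ank*, which supply the mineralization inhibitor pyrophosphate, were higher in *Col15a1*-type cells of both libraries. *Enpp1* was 44.4 against 0.643 CPM in intact and 36.2 against 8.54 CPM in callus cells, and *Ank* was 33.3 against 10.3 and 64.1 against 8.54 CPM. The intact *Pi16*-type value of *Enpp1* rests on very few UMIs, so the size of that difference is loosely fixed. The ceramide synthase gene *Cers6* was lower in intact *Col15a1*-type cells, at 13.3 against 47.0 CPM. In all, 6 of 38 pathway genes were 2-fold apart between the types in intact tissue, where 17.7% of all genes counted were, and 6 of 36 in the callus, where 15.4% were. These counts were close to the background.

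In osteoblast-like cells 8 of 46 counted pathway genes were at least 2-fold higher than in callus fibroblasts and 23 lower. Over all genes 565 of 9212 were higher and 3504 lower, or 44.2% in all, and the medians were -0.94 for the pathway and -0.69 for all genes. *Alpl*, the phosphatase of mineralizing cells that destroys pyrophosphate, was 452 against 1.65 CPM (log2 ratio 8.09, interval 6.53 to 10.38). The sphingosine 1-phosphate receptor genes split. *S1pr3* was 122 against 0.551 CPM and *S1pr1* 56.6 against 2.21 CPM, while *S1pr2* was 2.63 against 43.6 CPM. The lower value of each rests on few UMIs, so the size of these differences is loosely fixed. The lower genes included *Ugcg*, which makes glucosylceramide from ceramide (9.22 against 86.0 CPM), *Col4a3bp*, the ceramide transfer protein (11.9 against 55.1 CPM), and *Smpdl3a*, a relative of acid sphingomyelinase (21.1 against 93.2 CPM). *Cers6* had 0 UMIs in osteoblast-like cells against 36.9 CPM, at least 9.35-fold lower with 3 counts as the floor of the group. *Phospho1*, which frees phosphate from phosphocholine, had 9 UMIs in osteoblast-like cells (11.9 CPM) and 0 in callus fibroblasts, fewer than the minimum for a ratio.

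BMSC-like cells shared the receptor pattern, with *S1pr1* at 309 against 2.21 CPM, *S1pr3* at 181 against 0.551 and *S1pr2* at 10.7 against 43.6. The lower value of each again rests on few UMIs. *Alpl* was 597 CPM in BMSC-like cells. *Ugcg* (28.4 against 86.0 CPM), *Arsa* (10.7 against 40.2) and *Cers6* (7.11 against 36.9) were lower, and *Enpp1* was higher (60.4 against 24.3). Over the lists, 5 of 45 genes were higher and 8 lower, where 29.9% of all genes counted were past 2-fold, so the share was near the background. The median was 0.02 against 0.16 over all genes.

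The genes whose levels were most like those of *Smpd3* were *Adgrd1*, *Scrn1*, *Fam167a*, *Kank1* and *Flrt3*, each at Pearson 0.85 with log2(CPM + 10) over the 28 groups, among 11918 genes ranked. Groups of 1 library share its preparation, so this is a description. The groups include intact erythroid-like and myogenic-like cells, whose *Smpd3* (257 and 132 CPM) lay in 2 cells and 1 cell. The ranking without these groups was not tested. *Adgrd1*, an adhesion G protein-coupled receptor, was 468 and 340 CPM in intact and callus *Pi16*-type cells, 102 and 100 in *Col15a1*-type and 52.7 in osteoblast-like cells. *Fam167a* was 74.0 and 62.3 CPM in *Pi16*-type, 2.22 and 5.58 in *Col15a1*-type and 38.2 in osteoblast-like cells. *Kank1* was 78.5 and 65.7 CPM in *Pi16*-type, 22.2 and 8.36 in *Col15a1*-type and 32.9 in osteoblast-like cells. *Scrn1* (29.6, 28.2 and 30.3 CPM) and *Flrt3* (27.7, 9.39 and 17.1 CPM) are given for intact *Pi16*-type, callus *Pi16*-type and osteoblast-like cells, and all 5 genes were at 0 to 3.56 CPM in BMSC-like cells. In intact and callus *Col15a1*-type cells *Scrn1* was at 15.5 and 8.36 CPM and *Flrt3* at 15.5 and 2.79 CPM. The markers of either cell type alone were less alike, with Pearson 0.57 for *Pi16* and 0.41 for *Ifitm5*, and the other 6 enzymes ranged from -0.08 for *Sgms1* to 0.34 for *Sgms2*. *Clec3b*, a general fibroblast marker, was at Pearson 0.61. By rank (Spearman) *Clec3b* was at 0.67, within the range of the 5 genes, 0.61 for *Scrn1* to 0.82 for *Adgrd1*.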

How the data were processed

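Femoral tissue of pooled mice was sorted for tdTomato+ cells and sequenced as 1 library per condition. The deposited values are raw UMI counts per gene and barcode, made by the authors with Cell Ranger (6.0.0 per the file headers) on mm10 per the submitters' processing notes. The annotation release is not given in the sources used here. Counts were not normalized before deposit, and total UMIs per barcode set the precision of each value.

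Cells with under 500 genes or over 10% mt- UMIs were left out. A cell was assigned to the type with the highest score among 22 marker lists, given at least 3 UMIs from 2 markers and a score (mean standardized log level of the markers) over 0.5, limits set after values had been seen. Fibroblasts were then divided by the best of the *Pi16*-type, *Col15a1*-type and tenocyte lists. Raw UMIs were summed per type and library as CPM. Intervals are exact Poisson for levels, Clopper-Pearson for shares and conditional exact for ratios, all at 95% and for counting error only. Groups under 20 cells are given as counts only. Ratios cover genes with at least 20 UMIs over both groups, 2-fold is the size named, and a group at 0 was set at 3 counts. Shares were repeated with cells thinned to 2000 UMIs. With 1 library per condition no test was made.

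The enzymes were chosen by symbol. Pathway genes are named if they held at least 100 stromal UMIs and were at least 2-fold apart, at most 8 per comparison, and *Phospho1* was added after its values were seen. Like genes are the 5 with the highest Pearson correlation of log2(CPM + 10) among genes with at least 100 UMIs. The members and lists were chosen with earlier results of these data known. Alternatives were stricter and looser cell filters, Scrublet, Leiden clusters, a doubled marker minimum, equal weight per cell, the top cell left out, other thinning and a higher gene minimum. Ratios and thinning were tested on simulated data. Gene positions come from a GRCm38 annotation that held 99.8% of the gene IDs. The software was python 3.11.15, numpy 2.4.6, scipy 1.17.1, pandas 2.3.3, scanpy 1.11.5, anndata 0.12.19, igraph 0.11.9, scikit-learn 1.9.0 and matplotlib 3.10.9.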

Additional observations from a re-analysis of the deposited data

Results flagged for a closer look

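UMIs of the enzymes were also present in barcodes that the cell filter left out, which no comparison used. They are listed because each count exceeded the 3 counts that a count of 0 allows. In the 665 intact barcodes left out (4593207 UMIs) there were 15 *Smpd3* UMIs (3.27 CPM) and 9 *Sgms1* UMIs (1.96 CPM). In the 692 callus barcodes left out (2426781 UMIs) there were 29 *Smpd3* UMIs in 8 barcodes (11.9 CPM), 14 of *Smpd1* (5.77 CPM), 6 of *Smpd2* (2.47 CPM), 14 of *Sgms1*, 12 of *Sgms2* (4.94 CPM), 19 of *Asah1* (7.83 CPM) and 29 of *Cers2* in 20 barcodes.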

How the results depend on the processing

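Over 54 results, 408 of 439 values under other settings stayed within the counting interval or 1.5 times the count, 30 moved and 1 turned direction. The *Smpd3* log2 ratio of callus over intact *Pi16*-type cells was -1.74 with types from Leiden clusters and -1.70 with every cell weighing the same, against -1.96. That of osteoblast-like cells over callus fibroblasts was 2.23 and 1.37 under the same settings, and 2.17 with cells holding an *Ifitm5* UMI, against 2.00. *Sgms1* in that comparison turned from -1.31 to 0.29 with every cell weighing the same, and the cause was not tested. With a minimum of 50 UMIs, which counts fewer genes, those at least 2-fold apart numbered 245 in place of 671 (callus over intact, *Pi16*-type), 716 in place of 1483 (*Col15a1*-type over *Pi16*-type, intact) and 501 in place of 1221 (callus). The settings on *Ifitm5* and on neutrophil marker UMIs were chosen after seeing the data. No paired analysis was possible because each condition has 1 library. Depth limits *Smpd1* and *Smpd2* most, with 105 and 64 UMIs in the kept intact cells.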

Other observations

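Groups with too few cells for a level were read as counts. The 1 intact osteoblast-like cell, with 28004 UMIs, held 36 *Smpd3* and 12 *Sgms2* UMIs and 0 of *Asah1*. The 16 osteoclast-like cells of the callus held 62 *Asah1* UMIs in 13 cells, 32 *Cers2* UMIs in 13 cells and 0 *Smpd3* UMIs. The 4 chondrocyte-like cells of the callus, at a median depth of 25744 UMIs, all held *Sgms2*. They had 21 *Sgms2* UMIs in sum, 16 of them in 1 cell, and 1 *Smpd3* UMI.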
